A study of Mus musculus with 38 samples.

Results

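Wild-type primary mouse embryonic fibroblasts treated with tumour necrosis factor (TNF) for 1 h were compared with untreated cells of the same genotype. The members were the 4 libraries with those labels (2 at 1 h, 2 untreated) out of 38 in the series, and the comparison was read across all 13843 of 45706 genes that passed a count filter. All cells were from C57BL/6 embryos and were kept overnight in medium with 0.5% serum before stimulation, a condition that the untreated cells shared. TNF was given at 10 ng/ml. The series also holds wild-type cells at 0.5, 3 and 8 h of TNF, cells with the knock-in allele RelA-TA-KI at the same times, and a second set of libraries given Poly(I:C) at 20 ug/ml or LPS at 100 ng/ml. Of that second set, the untreated, LPS 1 h and Poly(I:C) 1 h wild-type libraries are used below, 1 library each. The labels give replicate numbers 1 and 2 without saying whether they mark embryos, cultures or days, so p-values measure the spread between these samples.

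TNF binds the receptor TNFR1, which assembles a complex of adaptors, ubiquitin ligases and kinases at the membrane. The complex activates the IKK kinase, which marks the IkB inhibitors for destruction and so frees NF-kB dimers to enter the nucleus, and it also activates MAP kinases that act on AP-1 and on serum response factors. Among the first genes transcribed are those that encode the inhibitors of the pathway itself, which end the first wave of nuclear NF-kB. Fibroblasts are a source of chemokines and adhesion molecules in inflamed tissue, where they help to draw in neutrophils and monocytes.

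The 4 libraries held 6715022 to 9590932 gene counts, which are also the lowest and the highest total among the 20 libraries of the TNF table. Values are given as CPM, a gene's counts scaled to a common library size after TMM adjustment, and the log2 fold change, its standard error (SE) and the adjusted p come from edgeR's quasi-likelihood F test with Benjamini-Hochberg adjustment over all 13843 genes. A gene was called when the adjusted p was under 0.05. Fibroblast markers were high in all 4 libraries, with 10 markers summing to 26088 to 35818 CPM, none called, and none at 0. Markers of macrophages summed to 764 and 1111 CPM in untreated cells and 783 and 984 at 1 h, with 0 of 8 called, those of endothelium to 50.8 to 78.5 CPM, and those of epithelium to 49.6 and 59.9 CPM in the 2 libraries numbered 1 against 5.45 and 6.20 in those numbered 2. The libraries numbered 1 had the female pattern, with 404 and 351 CPM of Xist, and those numbered 2 the male one, with 145 and 156 CPM of the Y-linked gene Ddx3y. The replicates of a group were thus not repeats of the same cells, and sex was balanced between treated and untreated cells but not separable from replicate number. In these bulk samples, more RNA per cell and more cells of a type cannot be told apart.

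At 1 h, TNF had raised 356 genes (2.57% of those tested) and lowered 171 (1.24%), together 3.81%. The rises were the larger changes: 150 of the 356 reached a log2 fold of at least 1, 76 of at least 2 and 20 of at least 4, while 32 of the 171 falls reached -1. The median over all genes tested was -0.0038. The 2 treated and 2 untreated libraries did not overlap for any of the 527 called genes, against 21.0% of all tested genes with both treated libraries higher and 20.9% with both lower. When the shift shared by same-numbered libraries was taken out with the replicate number as a block within each genotype, 1402 genes were called (848 higher, 6.13%, and 554 lower, 4%, or 10.1% together), and the 527 were among them with the same sign. The number of calls fell to 357 without untreated replicate 1, 249 without untreated replicate 2, 262 without TNF replicate 1 and 294 without TNF replicate 2. The falls went to 109, 53, 56 and 66 in the same order, and 181 of the 527 calls (163 rises and 18 falls) held whichever of the 4 libraries was left out. DESeq2 called 321 rises and 93 falls.

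**Figure D1:**
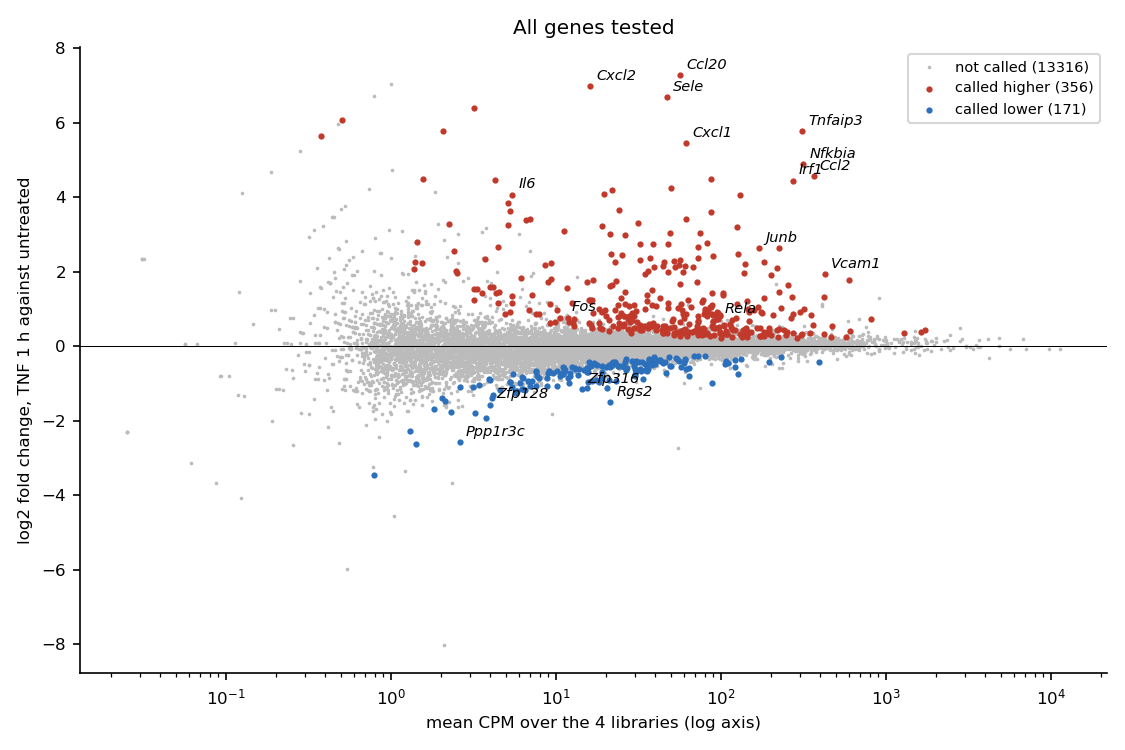
Log2 fold change of each of 13843 tested genes (TNF 1 h against untreated, wild-type, 2 libraries a side) against its mean CPM on a log axis; red, 356 genes called higher; blue, 171 called lower; grey, not called. The rises reach above 7 on the log2 scale, and the falls lie mostly between 0 and -2 at low to middle CPM.

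Among the 15 largest rises (mean of at least 20 counts) were inflammatory chemokines, an adhesion molecule, inhibitors of NF-kB and early transcription factors, Egr4 included, which is given below with its counts. Ccl20, the ligand of CCR6, went from 0.870 and 0.605 CPM in untreated replicates 1 and 2 to 114 and 112 at 1 h (log2 fold 7.27, SE 0.19, adjusted p = 5.6e-12). Sele, the selectin that slows leukocytes on activated endothelium, went from 0.725 and 1.01 to 81.2 and 105 CPM (log2 fold 6.68, SE 0.35, adjusted p = 1.5e-08). Both were low without TNF and high in both treated libraries. Cxcl2, a neutrophil attractant, stood at 0.145 and 0.302 CPM untreated and 34.9 and 29.5 at 1 h (log2 fold 6.99, SE 0.55, adjusted p = 1.0e-06), and its relative Cxcl1 at 2.03 and 3.23 CPM untreated and 126 and 113 at 1 h (log2 fold 5.45, SE 0.38, adjusted p = 2.5e-07). Ccl2, which attracts monocytes, rose from 26.1 and 32.8 to 676 and 724 CPM (log2 fold 4.56, SE 0.16, adjusted p = 1.9e-10). Cxcl10, a ligand of CXCR3 on T cells, rose from 4.50 and 9.68 to 148 and 188 (log2 fold 4.50, SE 0.37, adjusted p = 1.9e-06). Both untreated libraries of each chemokine lay far below both treated ones.

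Next to these stood regulators made early in the response. Irf1, the transcription factor interferon regulatory factor 1, rose from 21.8 and 25.7 to 478 and 565 CPM (log2 fold 4.45, SE 0.18, adjusted p = 6.4e-10). Rnd1, a regulator of the actin cytoskeleton, rose from 5.08 and 4.94 to 90.5 and 99.4 (log2 fold 4.24, SE 0.14, adjusted p = 1.0e-10). Has1, a hyaluronan synthase, went from 0.290 and 0.403 to 7.25 and 9.05 CPM (log2 fold 4.46, SE 0.42, adjusted p = 7.2e-06). In each of these the 2 treated libraries were close to each other and well separated from the untreated ones. Fosb, an AP-1 subunit, rose from 1.89 and 2.52 to 48.5 and 34.9 (log2 fold 4.20, SE 0.22, adjusted p = 1.0e-08), and Nr4a3, an orphan nuclear receptor, from 2.61 and 1.81 to 40.7 and 33.1 (log2 fold 4.08, SE 0.23, adjusted p = 2.4e-08). Il6, the cytokine interleukin 6, stood at 0.580 and 0.605 CPM untreated and 11.3 and 9.17 at 1 h (log2 fold 4.07, SE 0.41, adjusted p = 1.8e-05).

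**Figure D2:**
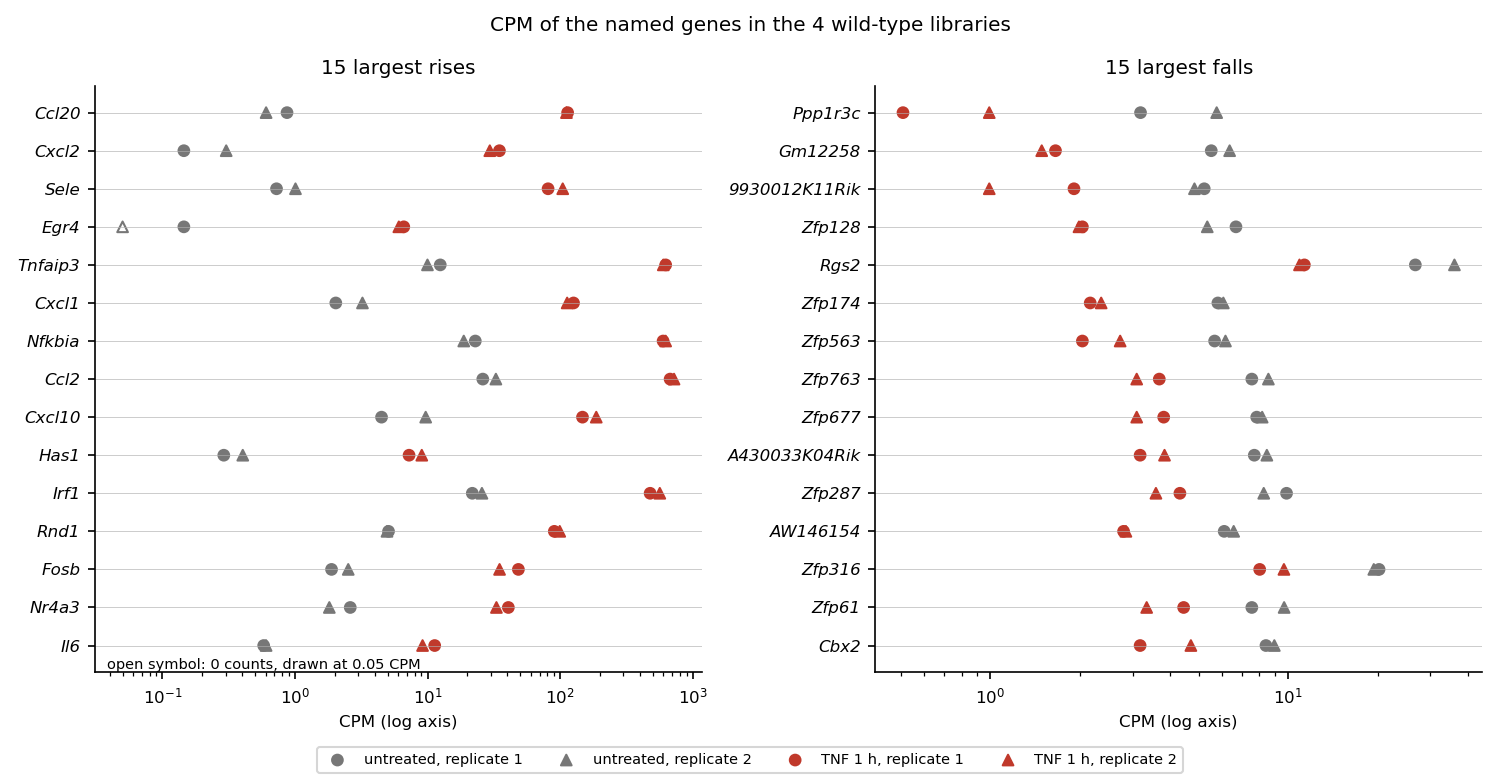
CPM on a log axis of the 15 genes with the largest rise (left) and the 15 with the largest fall (right) (called, averaging 20 counts or more), in untreated (grey) and TNF 1 h (red) wild-type libraries; circles, replicate 1; triangles, replicate 2; the open symbol marks 0 counts and is drawn at 0.05 CPM. The genes were chosen with no overlap of CPM between the groups, so grey and red symbols are separate in each row. The gap is more than 10-fold in the left panel.

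The inhibitors of NF-kB rose as a group: all 6 IkB family genes tested were called higher, with a median log2 fold of 2.78. Nfkbia, which encodes IkB alpha, the inhibitor that holds RelA dimers in the cytoplasm, rose from 22.9 and 18.8 to 599 and 626 CPM (log2 fold 4.89, SE 0.13, adjusted p = 5.6e-12). Nfkbie, IkB epsilon, went from 4.93 and 6.35 to 52.4 and 62.3 (log2 fold 3.32, SE 0.19, adjusted p = 3.2e-08), and Bcl3, a nuclear IkB protein that binds p50 and p52, from 5.95 and 5.65 to 43.4 and 49.4 (log2 fold 3.00, SE 0.26, adjusted p = 2.6e-06). The treated libraries were alike for all 3 genes. Nfkbid, another nuclear IkB protein, had 0.290 and 1.01 CPM untreated and 4.20 and 4.21 at 1 h (log2 fold 2.56, SE 0.47, adjusted p = 0.0055). The nuclear cofactor Nfkbiz rose by log2 2.02, adjusted p = 2.0e-04, and Nfkbib, IkB beta, by 0.81, adjusted p = 0.0037. Removal of 1 library ended the call of Nfkbib without untreated replicate 2 or TNF replicate 1 (adjusted p up to 0.077). The call of Nfkbid was lost without untreated replicate 1 (adjusted p up to 0.053).

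The 5 genes of the NF-kB subunits were also all called higher (median 1.18), but by different amounts. Rel, the subunit c-Rel, rose most, from 21.3 and 19.2 to 90.0 and 92.7 CPM (log2 fold 2.18, SE 0.09, adjusted p = 6.8e-10), followed by Relb from 15.2 and 13.6 to 53.9 and 56.9 (log2 fold 1.95, SE 0.13, adjusted p = 1.8e-07). Nfkb2, the precursor of p52, went from 46.6 and 47.3 to 109.9 and 104 (log2 fold 1.18, SE 0.07, adjusted p = 4.5e-08). The untreated pairs of these genes lay close together, so rises of this size stood clear of the spread. Rela itself rose from 71.9 and 72.6 to 123 and 118 CPM (log2 fold 0.74, SE 0.06, adjusted p = 3.1e-06) and Nfkb1, the precursor of p50, from 70.3 and 72.2 to 108 and 102 (log2 fold 0.56, SE 0.07, adjusted p = 1.7e-04). The 5 calls held with any single library left out.

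In the receptor complex, the genes of several core signalling proteins were not called, while 7 of the 24 tested were higher and none lower, 7 and 1 with the block (median 0.03). The receptor gene Tnfrsf1a stood at 162 and 167 CPM untreated and 142 and 154 at 1 h (log2 fold -0.15, adjusted p = 0.33), the adaptor Tradd at 17.4 and 17.4 untreated and 15.9 and 16.2 at 1 h (log2 fold -0.11, adjusted p = 0.78), the kinase Ripk1 at 58 and 61.5 untreated and 51.9 and 56 at 1 h (log2 fold -0.15, adjusted p = 0.54), and the IKK kinase Ikbkb at 50.2 and 46.2 untreated and 47.8 and 49.6 at 1 h (log2 fold 0.02, adjusted p = 0.96). The 7 that rose were ubiquitin ligases, adaptors and kinases recruited to or fed by the complex. Birc3, the ubiquitin ligase cIAP2, went from 11.2 and 12.6 to 57.9 and 66.4 CPM (log2 fold 2.38, SE 0.17, adjusted p = 4.6e-07). Map3k8, the kinase Tpl2 that feeds the ERK pathway, rose from 2.90 and 3.53 to 14.5 and 16.2 (log2 fold 2.24, SE 0.31, adjusted p = 3.7e-04), and Map3k14, the kinase NIK of the alternative pathway, from 13.8 and 12.4 to 24.4 and 25.3 (log2 fold 0.93, SE 0.10, adjusted p = 3.5e-05). The adaptor Traf1 was low in all 4 libraries, 0.435 and 0.504 and then 3.05 and 1.61 CPM (log2 fold 2.25, SE 0.46, adjusted p = 0.01). The remaining 3, Birc2, Traf3 and Tank, changed by 0.41 to 0.66. With any single library left out, 4 members were called. Single-library removal ended the call of Tank whichever of the 4 was removed (adjusted p up to 0.2). The call of Traf1 was lost without untreated replicate 1, untreated replicate 2 or TNF replicate 1 (adjusted p up to 0.17). The call of Traf3 was lost without untreated replicate 2, TNF replicate 1 or TNF replicate 2 (adjusted p up to 0.44). The call of Birc2 was lost without untreated replicate 1 or TNF replicate 2 (adjusted p up to 0.069).

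Of 12 genes for A20 and related ubiquitin enzymes and their partners, 3 were called higher (median 0.09). Tnfaip3, the ubiquitin-editing enzyme A20 that dismantles the signalling complex, rose from 12.5 and 9.98 to 626 and 601 CPM (log2 fold 5.79, SE 0.17, adjusted p = 1.8e-11). Its partners Tnip3 and Tnip1 also rose, Tnip3 from 2.18 and 2.02 to 5.60 and 6.94 (log2 fold 1.58, SE 0.30, adjusted p = 0.0064) and Tnip1 from 38.1 and 40.2 to 61.6 and 63.5 (log2 fold 0.67, SE 0.14, adjusted p = 0.012). The deubiquitinases Cyld and Otulin were not called (log2 fold 0.14 and -0.16). Leaving 1 library out ended the call of Tnip1 whichever of the 4 was removed (adjusted p up to 0.091). The call of Tnip3 was lost without untreated replicate 2 or TNF replicate 2 (adjusted p up to 0.1).

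The promoters of these genes were read from RefSeq (GRCm38.p6, the assembly behind the authors' mm10), which holds a promoter for 10592 of the 13809 tested genes with a symbol of their own. The stretches below are the 130 bases before the annotated gene start, 5′ to 3′ on the gene's strand, shown because these 7 genes were among the largest rises and held the kB motif, the letters that NF-kB dimers bind, marked in capitals. The kB motif was searched by name on both strands.

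Cxcl1: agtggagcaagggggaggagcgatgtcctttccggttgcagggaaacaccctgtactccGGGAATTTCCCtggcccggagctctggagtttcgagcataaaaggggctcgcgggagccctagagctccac

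Cxcl2: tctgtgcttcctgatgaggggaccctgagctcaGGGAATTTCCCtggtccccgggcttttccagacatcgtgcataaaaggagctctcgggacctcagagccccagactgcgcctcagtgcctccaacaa

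Ccl20: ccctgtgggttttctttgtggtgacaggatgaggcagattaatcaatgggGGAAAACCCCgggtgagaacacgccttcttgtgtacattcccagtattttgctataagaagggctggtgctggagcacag

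Nfkbia: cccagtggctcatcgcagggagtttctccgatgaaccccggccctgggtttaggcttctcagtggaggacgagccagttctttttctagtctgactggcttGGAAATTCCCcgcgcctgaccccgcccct

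Tnfaip3: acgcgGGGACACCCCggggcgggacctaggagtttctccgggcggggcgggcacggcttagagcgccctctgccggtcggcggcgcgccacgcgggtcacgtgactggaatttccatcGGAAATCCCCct

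Irf1: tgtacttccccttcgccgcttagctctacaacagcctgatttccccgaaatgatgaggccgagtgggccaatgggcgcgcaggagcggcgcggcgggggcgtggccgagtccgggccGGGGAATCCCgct

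Il6: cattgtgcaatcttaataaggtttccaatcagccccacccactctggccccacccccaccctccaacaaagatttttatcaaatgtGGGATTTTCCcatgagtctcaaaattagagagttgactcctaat

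Cxcl1 lies at chr5:90891115-90891244, Cxcl2 at chr5:90903769-90903898, Ccl20 at chr1:83116636-83116765, Irf1 at chr11:53769884-53770013 and Il6 at chr5:30012984-30013113, all on the plus strand, and Nfkbia at chr12:55492648-55492777 and Tnfaip3 at chr10:19015411-19015540 on the minus strand. In Cxcl1 and Cxcl2 the capitals are 2 overlapping matches, on either strand, starting 71 and 97 bases before the gene start. Tnfaip3 had 2 separate matches, 125 and 12 bases before it, Ccl20 1 at 80, Il6 1 at 44, Nfkbia 1 at 29 and Irf1 1 at 13. Zfp36, described below with the mRNA decay factors, is shown for the CArG box, the letters that serum response factor binds. It lies on the minus strand at chr7:28379229-28379358, with the match starting 58 bases before the gene start.

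Zfp36: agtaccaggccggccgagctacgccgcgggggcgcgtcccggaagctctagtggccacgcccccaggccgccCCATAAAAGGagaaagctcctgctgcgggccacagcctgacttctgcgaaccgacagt

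Across windows from 250 bases before to 50 after the start, the kB motif was found in 21 of 56 genes called with a log2 fold of at least 2 (37.5%), in 27.78% of 108 with at least 1, in 17.15% of all 274 called higher, in 3.6% of 139 called lower, in 5.36% of all tested genes and in 4.51% of all 32851 promoters of the table. The AP-1 motif TGANTCA followed with 16.07%, 11.11%, 8.03%, 5.04%, 4.87% and 7.81% in the same order of sets. The CArG box differed little, 1.79% among rises of at least 2, 0.72% among the called lower and 1.31% among all tested. The first share is 1 of 56 genes, which is the Zfp36 shown above, and the second is 1 of 139. The letters TATAAA occurred in 19.64% (11 of 56), 16.67%, 12.77%, 6.47%, 7.33% and 13.62%, in the same order of sets as the kB motif. A CArG box can hold the letters TATAAA within it, and neighbouring matches of other motifs can share end letters. A match describes letters in these windows and is not a measured site.

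Of the 13 CXC and CX3C chemokines tested, 7 were called higher and none lower, 8 and 1 with the block (median 1.46). Cxcl9, another CXCR3 ligand, rose from 0.870 and 1.01 to 6.62 and 11.9 CPM (log2 fold 3.27, SE 0.66, adjusted p = 0.01). The homeostatic chemokine Cxcl12 was not called (-0.19 on the log2 scale), and passed with the replicate block (adjusted p = 0.043). In the CC family 3 of 14 were called, 6 with the block (median 0.40). Beside Ccl20 and Ccl2 this was Ccl7, a monocyte attractant next to Ccl2, which rose from 21 and 27.5 to 204 and 247 CPM (log2 fold 3.20, SE 0.20, adjusted p = 9.0e-08). Ccl5, a T cell attractant, stood at 0.725 and 0.908 CPM untreated and 3.18 and 2.23 at 1 h and was not called (log2 fold 1.68, adjusted p = 0.084, with the block 0.013). A fit short of 1 library ended the call of Cxcl9 without untreated replicate 1, untreated replicate 2 or TNF replicate 2 (adjusted p up to 0.13).

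Several of the called chemokine genes were neighbours. Cxcl5, Cxcl3, Cxcl1 and Cxcl2, with the growth factor gene Ereg and Rassf6, were called higher within chr5:90603076-91093646, each within 200 kb of the next, and Cxcl9 and Cxcl10 within chr5:92321347-92348889. Ccl2 and Ccl7 lie in chr11:82035571-82047525, Relb, Bcl3 and Pvr in chr7:19606217-19921160, Birc2 and Birc3 in chr9:7818227-7873186, and Sele and Selp in chr1:164048234-164150026. Coordinates are those of the authors' mm10 table. The call of Cxcl3 was lost without untreated replicate 1 or TNF replicate 2. That of Rassf6 was lost without untreated replicate 2, TNF replicate 1 or TNF replicate 2. Reads from near-identical family members, such as these chemokines, could be split between copies, and the handling of such reads is not given in the sources used here.

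Among 17 cytokine and colony-stimulating factor genes 5 were called higher and none lower, 6 and 1 with the block (median 0.37). Lif, leukaemia inhibitory factor, rose from 11.3 and 9.88 to 123 and 101 CPM (log2 fold 3.41, SE 0.21, adjusted p = 7.0e-08), and Tslp, an alarmin of barrier tissues, from 1.59 and 0.908 to 5.85 and 6.44 (log2 fold 2.34, SE 0.45, adjusted p = 0.0066). Csf2, the factor GM-CSF, had 1 count in the untreated libraries and 65 at 1 h, a ratio of 68.59 (95% exact interval 11.88 to 2750, counting error only). The other called members were Il6 and Csf1, macrophage colony-stimulating factor, and the members that were not called included Il33, at log2 fold -1.26, adjusted p = 0.32, which was called lower with the block (adjusted p = 0.025). Il1b, interleukin 1 beta, had 0 CPM in both untreated libraries and 2.29 and 1.735 at 1 h. It missed the threshold (log2 fold 7.05, SE 1.83, adjusted p = 0.051) and was called higher with the block (adjusted p = 1.6e-04). Of 8 ligands of the TNF family tested 4 rose, 5 with the block (median 1.63). The gene of TNF itself went from 1.16 and 1.11 to 10.4 and 13.8 CPM (log2 fold 3.40, SE 0.52, adjusted p = 0.0012), Tnfsf11, the osteoclast factor RANKL, from 3.34 and 2.82 to 13.2 and 14.8 (log2 fold 2.19, SE 0.28, adjusted p = 1.9e-04), and Tnfsf9, the ligand of 4-1BB, from 8.56 and 5.95 to 24.1 and 23.5 (log2 fold 1.73, SE 0.18, adjusted p = 2.8e-05). Tnfsf15 rose too (log2 fold 1.38, SE 0.27, adjusted p = 0.0088). All treated libraries lay above the untreated ones in these 4 genes, as in every gene called higher. Leaving out a single library ended the call of Tnfsf15 without untreated replicate 2 or TNF replicate 1 (adjusted p up to 0.14). The calls of Tslp and Csf2 were lost without untreated replicate 2 (adjusted p up to 0.14).

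Adhesion molecules were called higher in 5 of 13 cases and lower in none, 6 and 1 with the block (median 0.185). Icam1, the ligand of leukocyte integrins, rose from 36 and 40.9 to 189 and 241 CPM (log2 fold 2.48, SE 0.21, adjusted p = 2.6e-06), and Vcam1, the ligand of VLA-4, from 169 and 183 to 613 and 739 (log2 fold 1.94, SE 0.16, adjusted p = 2.0e-06). Selp, P-selectin, stood at 1.59 and 0.908 CPM untreated and 9.54 and 5.82 at 1 h (log2 fold 2.66, SE 0.44, adjusted p = 0.0025). Sele and Pvr completed the 5. Endothelial markers had 0 of 12 called, which cannot show which cells of these bulk samples made the RNA of Sele and Selp. Removal of 1 library ended the call of Pvr without untreated replicate 2, TNF replicate 1 or TNF replicate 2 (adjusted p up to 0.45). The call of Selp was lost without untreated replicate 2 (adjusted p up to 0.074).

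Genes listed for matrix turnover were called higher in 6 of 26 cases and lower in none, 11 and 2 with the block (median 0.27). Plau, the protease urokinase, rose from 87.2 and 87.2 to 211 and 195 CPM (log2 fold 1.22, SE 0.09, adjusted p = 9.7e-07). Tnfaip2, counted in this list but named for its induction by TNF, rose from 67.6 and 58.5 to 280.1 and 320.3 (log2 fold 2.25, SE 0.14, adjusted p = 9.0e-08). Tnfaip6, the hyaluronan-binding protein TSG-6, rose from 8.85 and 11.9 to 26.8 and 37.9 (log2 fold 1.62, SE 0.38, adjusted p = 0.027). The remaining called members were Has1, Has2 and the urokinase receptor Plaur. Mmp3, the protease stromelysin, stood at 7.69 and 8.27 CPM untreated and 11.4 and 8.18 at 1 h (log2 fold 0.29, adjusted p = 0.44), so its libraries overlapped. Single-library removal ended the call of Tnfaip6 whichever of the 4 was removed (adjusted p up to 0.19). The call of Plaur was lost without untreated replicate 2 or TNF replicate 1 (adjusted p up to 0.27).

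Immediate early genes are those transcribed without the need for new protein. Of 23 AP-1 and CREB family genes tested 10 were called higher and none lower, 13 and 2 with the block (median 0.47). Junb rose from 52.4 and 42.1 to 314 and 274 CPM (log2 fold 2.64, SE 0.10, adjusted p = 1.9e-10), Atf3, a stress-induced factor, from 16.4 and 15.9 to 131 and 138 (log2 fold 3.06, SE 0.15, adjusted p = 6.6e-09), and Fosl1, the subunit Fra-1, from 11.8 and 5.75 to 63.2 and 49.4 (log2 fold 2.74, SE 0.37, adjusted p = 3.1e-04). All treated libraries were above all untreated ones, as in every gene called higher, although the 2 untreated libraries of Fosl1 were apart from each other. Fos, the best known member, stood at 8.12 and 8.57 CPM untreated and 16 and 12.8 at 1 h and was not called (log2 fold 0.78, adjusted p = 0.3). It had been at 172 and 214 CPM at 0.5 h, so its level at 1 h was lower than at 0.5 h (log2 -3.75, adjusted p = 2.7e-06). Calls in this list numbered 9 to 11 with a single library left out.

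The list of EGR, KLF, NR4A and other early genes had 23 of 39 called higher and 1 lower, 26 and 1 with the block (median 0.96), and 22 to 23 higher with a single library left out. Egr1, a zinc-finger factor of the growth response, rose from 101 and 109 to 296 and 225 CPM (log2 fold 1.31, SE 0.14, adjusted p = 3.3e-05), Egr3 from 3.77 and 3.53 to 34.1 and 35.1 (log2 fold 3.24, SE 0.15, adjusted p = 3.6e-09) and Nr4a1, an orphan nuclear receptor, from 14.7 and 14.9 to 256 and 238 (log2 fold 4.06, SE 0.12, adjusted p = 2.2e-11). Gem, a small GTP-binding protein, rose from 10.3 and 10.9 to 84.7 and 90.7 (log2 fold 3.04, SE 0.14, adjusted p = 2.8e-09). Egr4 had 1 count in the untreated libraries and 101 at 1 h, a ratio of 106.6 (95% exact interval 18.7 to 4251). Of the other called genes with hardly any untreated counts, Cd69, a leukocyte activation antigen, had 2 counts untreated and 48 at 1 h, a ratio of 25.33 (6.64 to 215.1), Oacyl 0 and 16, at least 5.628-fold higher, and Bdkrb1, a bradykinin receptor, 0 and 12, at least 4.221-fold higher, against a floor of 3 counts over the untreated group. The 1 member called lower was Csrnp2 (-0.57), and its relative Csrnp1 rose by log2 2.74. Klf4 was not called (log2 fold 0.06, adjusted p = 0.76). Leaving 1 library out ended the calls of Csrnp2, Cd69 and Bdkrb1 whichever of the 4 was removed (adjusted p up to 0.35). The call of Oacyl was lost without untreated replicate 1, untreated replicate 2 or TNF replicate 1 (adjusted p up to 0.43).

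**Figure D3:**
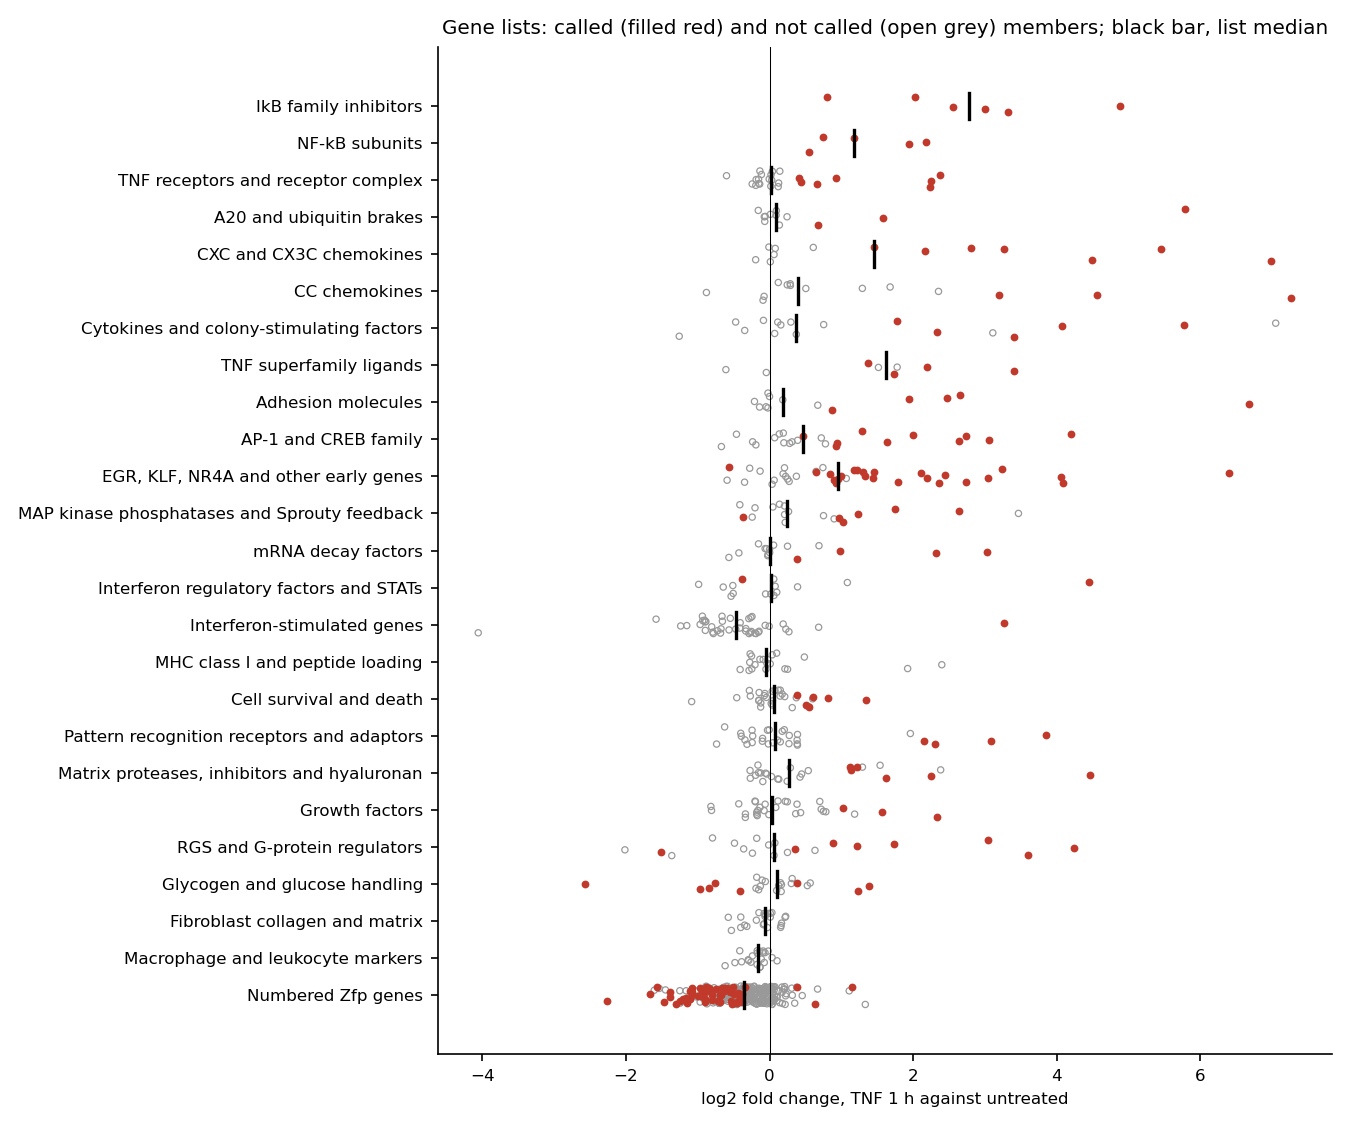
Log2 fold change (TNF 1 h against untreated) of the tested members of 25 gene lists; each point is a gene, filled red where called at an adjusted p under 0.05 and open grey where not, and black bars are list medians. IkB inhibitors and NF-kB subunits have no uncalled member, and the called numbered Zfp genes lie mostly to the left of 0.

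Genes that limit these signals were called in part. Of 18 MAP kinase phosphatase and Sprouty genes 5 were higher and 1 lower, 9 and 2 with the block (median 0.24). Errfi1, an inhibitor of the EGF receptor, rose from 67.7 and 57 to 433 and 345 CPM (log2 fold 2.65, SE 0.16, adjusted p = 7.0e-08), Dusp8 from 12 and 9.38 to 34.7 and 36.7 (log2 fold 1.75, SE 0.16, adjusted p = 4.8e-06), Dusp5 from 12.8 and 7.16 to 28 and 17.6 (log2 fold 1.23, SE 0.30, adjusted p = 0.032) and Dusp16 from 34.8 and 28.3 to 63.6 and 64.7 (log2 fold 1.03, SE 0.11, adjusted p = 4.2e-05). Dusp1, which acts on p38 and JNK, had 25.5 and 13.8 CPM untreated, 172 and 164 at 0.5 h and 35 and 29.7 at 1 h, and its change at 1 h missed the threshold (log2 fold 0.75, adjusted p = 0.084, with the block 0.0062). The member called lower was Dusp7 (-0.37). A fit short of 1 library ended the call of Dusp7 whichever of the 4 was removed (adjusted p up to 0.21). The call of Dusp5 was lost without untreated replicate 2 or TNF replicate 1 (adjusted p up to 0.38).

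Of 16 mRNA decay factors 4 were higher, 6 with the block (median 0.00). Zfp36, which encodes tristetraprolin and destabilizes cytokine mRNAs, rose from 18.9 and 18.9 to 98 and 90.5 CPM (log2 fold 2.32, SE 0.15, adjusted p = 1.4e-07), and Zc3h12a, the endonuclease Regnase-1, from 4.06 and 5.14 to 40.7 and 35.6 (log2 fold 3.03, SE 0.18, adjusted p = 4.0e-08). Zc3h12c (0.98, adjusted p = 0.0012) and Zfp36l2 (0.38, adjusted p = 0.029) rose by less on the log2 scale. Of 12 genes of SOCS feedback 2 were called higher and none lower, 2 and 2 with the block (median -0.01). Cish went from 2.76 and 2.12 to 5.85 and 7.43 CPM (log2 fold 1.46, SE 0.25, adjusted p = 0.0028) and the phosphatase Ptpn2 from 32.2 and 36.2 to 46.3 and 47.3 (log2 fold 0.45, SE 0.09, adjusted p = 0.012). Socs3, which restrains signals of the IL-6 family, was not called (log2 fold 0.58, adjusted p = 0.39). Leaving out a single library ended the call of Zfp36l2 without untreated replicate 1, untreated replicate 2 or TNF replicate 2 (adjusted p up to 0.27). The call of Ptpn2 was lost without untreated replicate 1, TNF replicate 1 or TNF replicate 2 (adjusted p up to 0.12). The call of Cish was lost without untreated replicate 2 (adjusted p up to 0.074).

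Like most genes tested, those of the interferon system were mostly not called at 1 h, apart from Irf1, Stat5b and a guanylate-binding protein. Of 15 interferon regulatory factors and STATs, Irf1 was the only one called higher and Stat5b the only one called lower (-0.39, adjusted p = 0.035 on the log2 scale), with 1 and 6 under the block. Of 43 interferon-stimulated genes 1 was called higher and none lower (median -0.47, with 38 of 43 below 0). The share called higher, 2.33%, was near the 2.57% of all genes. With the block 1 was higher and 12 lower, where 6.13% and 4% of all genes were called. Gbp5, a guanylate-binding protein, stood at 0.145 and 0.605 CPM untreated and 4.58 and 3.72 at 1 h (log2 fold 3.27, SE 0.76, adjusted p = 0.026). Ifit1, an antiviral RNA-binding protein, had 16.4 and 63.8 CPM untreated and 12.2 and 30.0 at 1 h, and Isg15, a ubiquitin-like modifier, 12.8 and 41 untreated and 8.91 and 25.8 at 1 h, and neither was called (log2 fold -0.97, adjusted p = 0.52, and -0.68, adjusted p = 0.72), but Ifit1 was called lower with the block (adjusted p = 0.03). In both genes replicate 2 exceeded replicate 1 in the treated and in the untreated pair. Macrophage and leukocyte markers had 0 of 22 called, with 20 of 22 below 0 and a median of -0.15 (0 higher and 3 lower with the block), and their part in the lower interferon-stimulated genes was not tested. MHC class I and peptide loading genes had 0 of 20 called, against 3.81% of all genes, and 1 higher with the block (median -0.04). Removal of 1 library ended the call of Gbp5 whichever of the 4 was removed (adjusted p up to 0.16). The call of Stat5b was lost without untreated replicate 2, TNF replicate 1 or TNF replicate 2 (adjusted p up to 0.34).

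Survival and death genes were called higher in 6 of 32 cases and lower in none, 10 and 1 with the block, and higher in 1 to 2 with a single library left out (median 0.06). Casp4, an inflammatory caspase, went from 2.18 and 3.83 to 7.51 and 8.30 CPM (log2 fold 1.34, SE 0.29, adjusted p = 0.014), the death receptor Fas from 20.6 and 19.7 to 36.5 and 34.3 (log2 fold 0.82, SE 0.12, adjusted p = 8.9e-04), Ninj1, which ruptures the membrane of dying cells, from 29.7 and 28 to 45.8 and 42.3 (log2 fold 0.61, SE 0.13, adjusted p = 0.018), and Bid, a BH3 protein, from 30.3 and 31.6 to 46.8 and 43.7 (log2 fold 0.55, SE 0.13, adjusted p = 0.031). The survival genes Cflar and Mcl1 were the other 2, at 0.51 and 0.38. Pattern recognition genes were called higher in 4 of 30 cases and lower in none, 6 and 2 with the block (median 0.08). Tlr2, a receptor for bacterial lipoproteins, rose from 14.1 and 20.3 to 78.8 and 93.7 CPM (log2 fold 2.30, SE 0.39, adjusted p = 0.0025), Nlrp3, an inflammasome sensor, from 1.89 and 2.72 to 16.3 and 24 (log2 fold 3.09, SE 0.55, adjusted p = 0.0039), and the kinase Ripk2 from 23.6 and 21.3 to 89.8 and 108 (log2 fold 2.15, SE 0.19, adjusted p = 4.7e-06). Clec4e, the receptor Mincle, went from 0.725 and 0.605 to 8.02 and 11.3 (log2 fold 3.85, SE 0.95, adjusted p = 0.035). Macrophage markers were present in all 4 libraries, and which cells made the RNA of Tlr2, Nlrp3 and Clec4e was not tested. The same limit holds for Ccrl2 and Cd83, given below. Single-library removal ended the calls of Ninj1, Bid, Mcl1 and Clec4e whichever of the 4 was removed (adjusted p up to 0.29). The call of Casp4 was lost without untreated replicate 1, TNF replicate 1 or TNF replicate 2 (adjusted p up to 0.12). The call of Cflar was lost without untreated replicate 2 or TNF replicate 1 (adjusted p up to 0.1). The call of Nlrp3 was lost without untreated replicate 2 (adjusted p up to 0.052).

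Receptors for cytokines and for other TNF family members were called higher in 3 of 31 cases, 9 with the block (median 0.18). Ccrl2, a chemerin-binding receptor, went from 0.580 and 0.908 to 6.87 and 12.6 CPM (log2 fold 3.64, SE 0.49, adjusted p = 3.4e-04), Il15ra from 2.32 and 1.71 to 6.23 and 5.70 (log2 fold 1.59, SE 0.28, adjusted p = 0.0037), and Ifngr2, a chain of the interferon gamma receptor, from 95.2 and 92.4 to 119 and 118 (log2 fold 0.34, SE 0.06, adjusted p = 0.0054). In prostaglandin synthesis 1 of 16 was called, Ptges, the synthase of prostaglandin E2, which went from 10.0 and 14.1 to 23.7 and 25.4 (log2 fold 1.00, SE 0.26, adjusted p = 0.046), and 2 with the block. The second was Ptgs2, cyclooxygenase 2, which stood at 148 and 59.2 CPM untreated and 434 and 218 at 1 h (log2 fold 1.67, adjusted p = 0.082, with the block 6.8e-08). Each treated library of Ptgs2 was above the untreated one of its number, and replicate 1 was above replicate 2 at both times. Acute phase, complement and oxidant defence genes were higher in 4 of 23 cases and lower in none, 7 and 1 with the block (median 0.08). Ptx3, a pentraxin, rose from 47.9 and 64.1 to 212 and 227 CPM (log2 fold 1.96, SE 0.24, adjusted p = 1.3e-04) and the metallothionein Mt2 from 99.6 and 115 to 195 and 224 (log2 fold 0.96, SE 0.13, adjusted p = 4.2e-04). Sod2, the mitochondrial superoxide dismutase, stood at 51 and 43.8 CPM untreated and 71.6 and 70.8 at 1 h and missed the threshold (log2 fold 0.59, adjusted p = 0.067, with the block 0.0098). Leaving 1 library out ended the call of Ptges whichever of the 4 was removed (adjusted p up to 0.24). The call of Ifngr2 was lost without untreated replicate 2 or TNF replicate 1 (adjusted p up to 0.074). The call of Il15ra was lost without untreated replicate 2 (adjusted p up to 0.098).

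Growth factor genes were called higher in 3 of 30 cases and lower in none, 8 and 1 with the block (median 0.04). Ereg, the EGF receptor ligand epiregulin, went from 14.9 and 6.96 to 69.1 and 37.5 CPM (log2 fold 2.33, SE 0.41, adjusted p = 0.0035), Pdgfb from 5.80 and 5.95 to 18.6 and 16.2 (log2 fold 1.56, SE 0.18, adjusted p = 6.1e-05), and Fgf7, keratinocyte growth factor, from 35.1 and 37.6 to 72.9 and 74.8 (log2 fold 1.02, SE 0.07, adjusted p = 3.8e-07). In the BMP and TGF-beta list 3 of 28 were higher and 2 lower, 6 and 6 with the block (median -0.02). The members that rose, Tgif1, Smad7 and Skil (1.05, 0.87 and 0.85), are repressors of TGF-beta signalling, and those that fell, Id1 and Id3 (-0.75 and -0.44), are BMP targets. Id1 stood at 41.3 and 34.1 CPM untreated and 25.3 and 19.3 at 1 h. A fit short of 1 library ended the call of Smad7 whichever of the 4 was removed (adjusted p up to 0.41). The call of Id3 was lost without untreated replicate 2, TNF replicate 1 or TNF replicate 2 (adjusted p up to 0.19). The call of Ereg was lost without untreated replicate 2 or TNF replicate 1 (adjusted p up to 0.085). The call of Id1 was lost without untreated replicate 1 or TNF replicate 2 (adjusted p up to 0.095).

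Regulators of G proteins moved in both directions, 7 of 20 higher and 1 lower, 7 and 2 with the block (median 0.07). Rgs16, which switches off Gi and Gq signals, rose from 16.1 and 10.7 to 159 and 161 CPM (log2 fold 3.60, SE 0.21, adjusted p = 3.0e-08), while Rgs2, which acts on Gq, fell from 26.7 and 36.1 to 11.3 and 10.9 (log2 fold -1.51, SE 0.24, adjusted p = 0.0019). Rnd1, Gem and Rrad (1.73) were among the other rises. Of 15 clock genes 3 rose, Per1 from 26.1 and 25.7 to 53.2 and 57.5 CPM (log2 fold 1.09, SE 0.09, adjusted p = 2.1e-06), and Nr1d2 and Nr1d1 by 0.66, adjusted p = 6.2e-04, and 0.54, adjusted p = 0.048. Leaving out a single library ended the call of Nr1d1 whichever of the 4 was removed (adjusted p up to 0.4).

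Genes of glycogen and glucose handling were called in both directions. Of 23 tested 3 were higher and 5 lower, 6 and 5 with the block (median 0.10). Hk2, hexokinase 2, rose from 66.1 and 48.2 to 158 and 139 CPM (log2 fold 1.39, SE 0.19, adjusted p = 4.1e-04), and Pfkfb3, which makes an activator of glycolysis, from 57.7 and 35.6 to 123 and 94.8 (log2 fold 1.24, SE 0.23, adjusted p = 0.0063), and Pdk1, a kinase that restrains pyruvate dehydrogenase, rose by 0.39. The 5 that fell were 3 subunits that target a phosphatase to glycogen, Ppp1r3c, Ppp1r3d and Ppp1r3b, the insulin receptor substrate Irs1 and Txnip, which restrains glucose uptake. Ppp1r3c went from 3.19 and 5.75 to 0.509 and 0.991 CPM (log2 fold -2.58, SE 0.52, adjusted p = 0.0094), Ppp1r3d from 7.40 and 8.57 to 4.20 and 3.96 (log2 fold -0.97, SE 0.19, adjusted p = 0.0071), and Ppp1r3b, Irs1 and Txnip changed by -0.84, -0.75 and -0.41. With a single library left out, 1 to 3 of the list were called higher and 2 to 4 lower. Removal of 1 library ended the calls of Ppp1r3d and Ppp1r3b without untreated replicate 2, TNF replicate 1 or TNF replicate 2 (adjusted p up to 0.27). The calls of Pfkfb3, Pdk1 and Ppp1r3c were lost without untreated replicate 2 or TNF replicate 1 (adjusted p up to 0.26). The call of Irs1 was lost without untreated replicate 1 or TNF replicate 2 (adjusted p up to 0.072).

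The falls were led by zinc-finger genes. Of the 15 largest falls 8 were numbered Zfp genes, which encode zinc-finger proteins, many of them DNA-binding repressors. Zfp316 went from 20.2 and 19.4 to 8.02 and 9.67 CPM (log2 fold -1.16, SE 0.13, adjusted p = 6.0e-05), Zfp128 from 6.67 and 5.34 to 2.04 and 1.98 (log2 fold -1.56, SE 0.30, adjusted p = 0.0069) and Zfp174 from 5.80 and 6.05 to 2.16 and 2.35 (log2 fold -1.39, SE 0.26, adjusted p = 0.0063). Zfp763 went from 7.54 and 8.57 to 3.69 and 3.10 (log2 fold -1.25, SE 0.19, adjusted p = 9.0e-04), Zfp677 from 7.83 and 8.17 to 3.82 and 3.10 (log2 fold -1.21, SE 0.19, adjusted p = 0.0015) and Zfp287 from 9.86 and 8.27 to 4.33 and 3.59 (log2 fold -1.18, SE 0.20, adjusted p = 0.0031). Both treated libraries lay below both untreated ones in each, which the choice of the 15 falls required. Cbx2, a Polycomb protein, fell from 8.41 and 8.97 to 3.18 and 4.71 CPM (log2 fold -1.14, SE 0.25, adjusted p = 0.019). The other large falls were those of Ppp1r3c and Rgs2, described above, of Zfp563, Zfp61 and genes known by clone or model names, Gm12258 (-1.92), 9930012K11Rik, A430033K04Rik (-1.20) and AW146154 (-1.16). Single-library removal ended the call of Zfp128 without untreated replicate 1, TNF replicate 1 or TNF replicate 2 (adjusted p up to 0.07). The calls of Zfp174 and AW146154 were lost without untreated replicate 2, TNF replicate 1 or TNF replicate 2 (adjusted p up to 0.11). The call of Cbx2 was lost without untreated replicate 1, untreated replicate 2 or TNF replicate 1 (adjusted p up to 0.23). The calls of A430033K04Rik and Zfp563 were lost without untreated replicate 2 or TNF replicate 1. The call of Zfp61 was lost without untreated replicate 2 or TNF replicate 2. The call of Zfp287 was lost without TNF replicate 2 (adjusted p up to 0.053).

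Across all 322 numbered Zfp genes tested, Zfp36 left out, 56 were called lower (17.4%, against 1.24% of all genes) and 3 higher, Zfp622, Zfp593 and Zfp429, with a median of -0.35 and 271 of 322 below 0. Their summed level was 6880 and 7157 CPM in untreated replicates 1 and 2 and 6022 and 6122 at 1 h, and the median gene went from 10.8 and 11.7 CPM to 8.14 and 8.92. The treated libraries were lower in both sums. Within each replicate number the median log2 ratio was -0.28 and -0.34. Of the 3 rises, the calls of Zfp593 and Zfp429 were lost whichever of the 4 libraries was left out. The 56 falls ranged from -2.26 to -0.34, with 17 at -1 or below, and 21 were among the 82 tested on chromosome 7 and 11 among the 41 on chromosome 17, the chromosomes with most tested members. With the block 89 were called lower and 6 higher, with DESeq2 31 lower, without untreated replicate 1 45, without untreated replicate 2 23, and without TNF replicate 1 or TNF replicate 2 25. In RelA-TA-KI cells at 1 h, against their own untreated libraries, 57 of the 322 were called lower and 2 higher (1.28% lower and 2% higher of all genes), with a median of -0.34. The proteins share repeated motifs and their mRNAs can be alike, so counts may be split between copies.

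**Figure D4:**
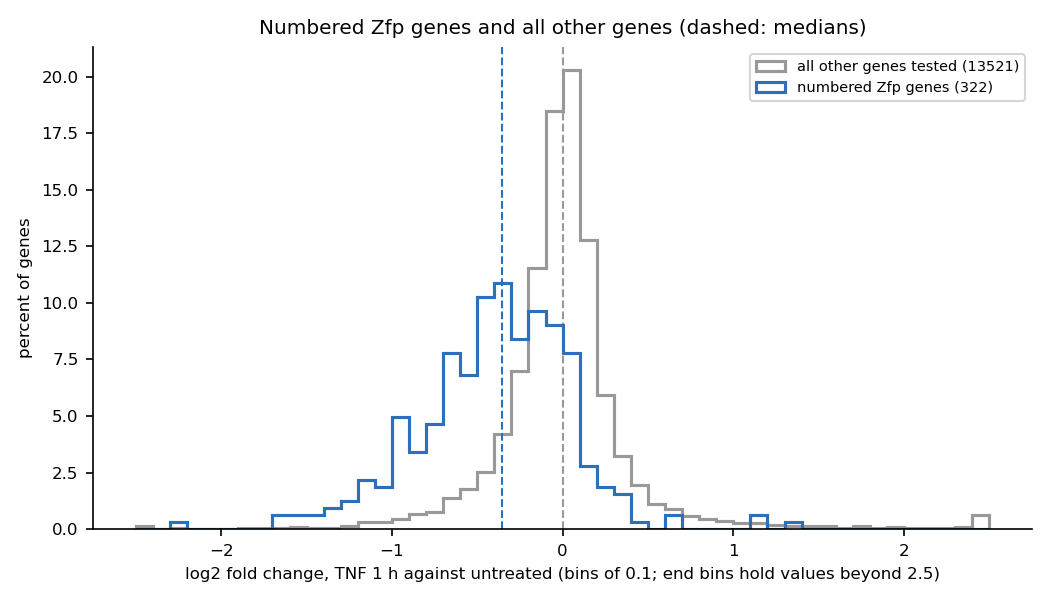
Distribution of log2 fold changes (TNF 1 h against untreated) of 322 numbered Zfp genes (blue) and of 13521 other tested genes (grey), in percent of each set per bin of 0.1; dashed lines are medians. The Zfp median lies at -0.35 and that of the other genes at 0.

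Other lists had few or no calls. Over all genes 2.57% were called higher and 1.24% lower, and 6.13% and 4% with the block. A short list with 0 called therefore does not stand apart from all genes. Fibroblast collagen and matrix genes had 0 of 23 called (median -0.06), while the block gave 3 rises and 4 falls. Contractile genes, targets of serum response factor, had 0 of 20 called but 20 of 20 above 0 (median 0.28), and 12 higher with the block. Acta2, smooth muscle actin, stood at 2749 and 1936 CPM untreated and 3526 and 3043 at 1 h (log2 fold 0.49, adjusted p = 0.44, with the block 1.7e-04). Muscle markers, 0 of 13 called, also lay above 0 in 13 of 13 cases (median 0.95, 2 higher with the block), with the defining markers summing to 128 and 82.6 CPM untreated and 163 and 131 at 1 h, and their part in the contractile genes was not tested. Of 25 cell cycle genes 3 were higher, Cdc20, Bub1 and Top2a (0.55, 0.54 and 0.34), and 8 with the block. Heat shock genes were higher in 2 of 14 cases, Dnajb1 and Dnajb4 (0.83 and 0.56), and in 8 with the block. Of 16 endoplasmic reticulum stress genes 4 were higher and none lower, 4 and 2 with the block. Ppp1r15a, which reverses the translational block of the stress response, rose from 44.1 and 41.2 to 81.2 and 95.8 CPM (log2 fold 1.05, SE 0.11, adjusted p = 1.7e-05), and the chaperones Calr, Hsp90b1 and Hspa5 rose by 0.35 to 0.45. In the list of 17 p53 targets, Gadd45b (log2 fold 2.77, SE 0.11, adjusted p = 6.8e-10) and Plk2 (0.99) were higher and none lower, 5 and 1 with the block. Whether Gadd45b and Plk2 rose through p53 was not tested. Cdkn1a and Mdm2 were not called (0.32 and 0.56), but were higher with the block (adjusted p = 0.0034 and 3.8e-05). Cholesterol synthesis genes had 0 of 24 called (median 0.11), 3 higher with the block. Leaving 1 library out ended the calls of Top2a and Dnajb4 whichever of the 4 was removed (adjusted p up to 0.34). The call of Bub1 was lost without untreated replicate 1, TNF replicate 1 or TNF replicate 2 (adjusted p up to 0.19). The call of Calr was lost without untreated replicate 2, TNF replicate 1 or TNF replicate 2 (adjusted p up to 0.25). The call of Hsp90b1 was lost without untreated replicate 2 (adjusted p up to 0.08).

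The 1 h sample stood at different points of the time course for different genes. The difference of the 1 h response between genotypes, given in the closing section, was called for 0.303% of genes as smaller and 0.00722% as larger in RelA-TA-KI cells. The steps from 0.5 to 1 h and from 1 to 3 h were tested in the same fit, where 1.41% and 12.7% of all genes were called. They share the 1 h libraries with the comparison above, so each gene's own values are given. Some genes had already passed their peak. Zfp36 had been at 369.8 and 446 CPM at 0.5 h and was lower at 1 h (log2 -2.11, adjusted p = 7.4e-07), as was Egr1 at 862 and 960.3 (log2 -1.81, adjusted p = 3.4e-06). Nfkbiz had been at 110.5 and 119 CPM at 0.5 h and was lower at 1 h as well (log2 -0.99, adjusted p = 0.047). For Cxcl1 (219.7 and 246 CPM at 0.5 h) and Tnf (26.6 and 41 CPM) the step to 1 h missed the threshold (log2 -0.96, adjusted p = 0.086 and log2 -1.48, adjusted p = 0.052).

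A second group was highest at 1 h of the 5 times. Tnfaip3 rose from 324 and 319 CPM at 0.5 h (log2 0.93, adjusted p = 7.0e-04) and fell to 208 and 232 at 3 h (log2 -1.48, adjusted p = 5.5e-06), and Nfkbia was at 364 and 427 at 0.5 h (log2 0.63, adjusted p = 0.0034) and 357 and 378 at 3 h (log2 -0.74, adjusted p = 2.5e-04). Rel, at 23.8 and 23.4 CPM at 0.5 h, rose steeply to 1 h (log2 1.95, adjusted p = 3.0e-08) and fell to 33.3 and 32.1 by 3 h (log2 -1.48, adjusted p = 6.8e-08). Sele rose from 24.9 and 29.1 CPM (log2 1.78, adjusted p = 4.8e-04) and fell to 14.4 and 23 (log2 -2.29, adjusted p = 2.2e-05), and Irf1 rose from 187 and 233 (log2 1.31, adjusted p = 1.6e-04) and fell to 174 and 232 (log2 -1.36, adjusted p = 4.3e-05).

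The last group was still on its way up. Icam1 was at 50.0 and 60.6 CPM at 0.5 h and 506 and 717 at 3 h (3 h against 1 h, log2 1.51, adjusted p = 1.4e-04), Vcam1 at 255 and 285 at 0.5 h and 1143 and 1629 at 3 h (log2 1.04, adjusted p = 5.2e-04), Relb at 15.7 and 16.1 at 0.5 h and 104 and 129.9 at 3 h (log2 1.08, adjusted p = 2.7e-05), Nfkb2 at 59 and 59.6 at 0.5 h and 273 and 302 at 3 h (log2 1.43, adjusted p = 1.2e-08) and Nfkbie at 6.49 and 8.16 at 0.5 h and 133 and 183 at 3 h (log2 1.46, adjusted p = 1.7e-05). Both 3 h libraries of these 5 genes lay above both 1 h libraries. The genes were placed in this group for that rise, so the separation is no further support. Ccl2 reached 1087 and 1251 CPM at 3 h (log2 0.74, adjusted p = 0.0024), and for Ccl20, at 150.4 and 127, the step missed the threshold (log2 0.29, adjusted p = 0.07). Gbp5, at 4.58 and 3.72 CPM at 1 h, was at 55.9 and 97.1 CPM at 3 h (log2 4.21, adjusted p = 6.1e-06). Zfp316 and Zfp677 were lowest at 1 h: Zfp316 was at 14.9 and 14.3 CPM at 0.5 h and 14.2 and 14.3 at 3 h (log2 0.68, adjusted p = 0.0039), and Zfp677 at 6.62 and 6.58 at 0.5 h and 6.78 and 8.81 at 3 h (log2 1.18, adjusted p = 9.3e-04). Both were taken from the 15 largest falls at 1 h, a choice that favours a lowest value at that time. Zfp503 did not return by 3 h. Its log2 fold against untreated cells was -0.99 at 1 h (adjusted p = 6.3e-08) and -1.20 at 3 h. Over the 322 numbered Zfp genes the median against untreated cells was -0.14 at 0.5 h, -0.35 at 1 h, -0.00 at 3 h and -0.02 at 8 h. These medians share the untreated libraries.

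**Figure D5:**
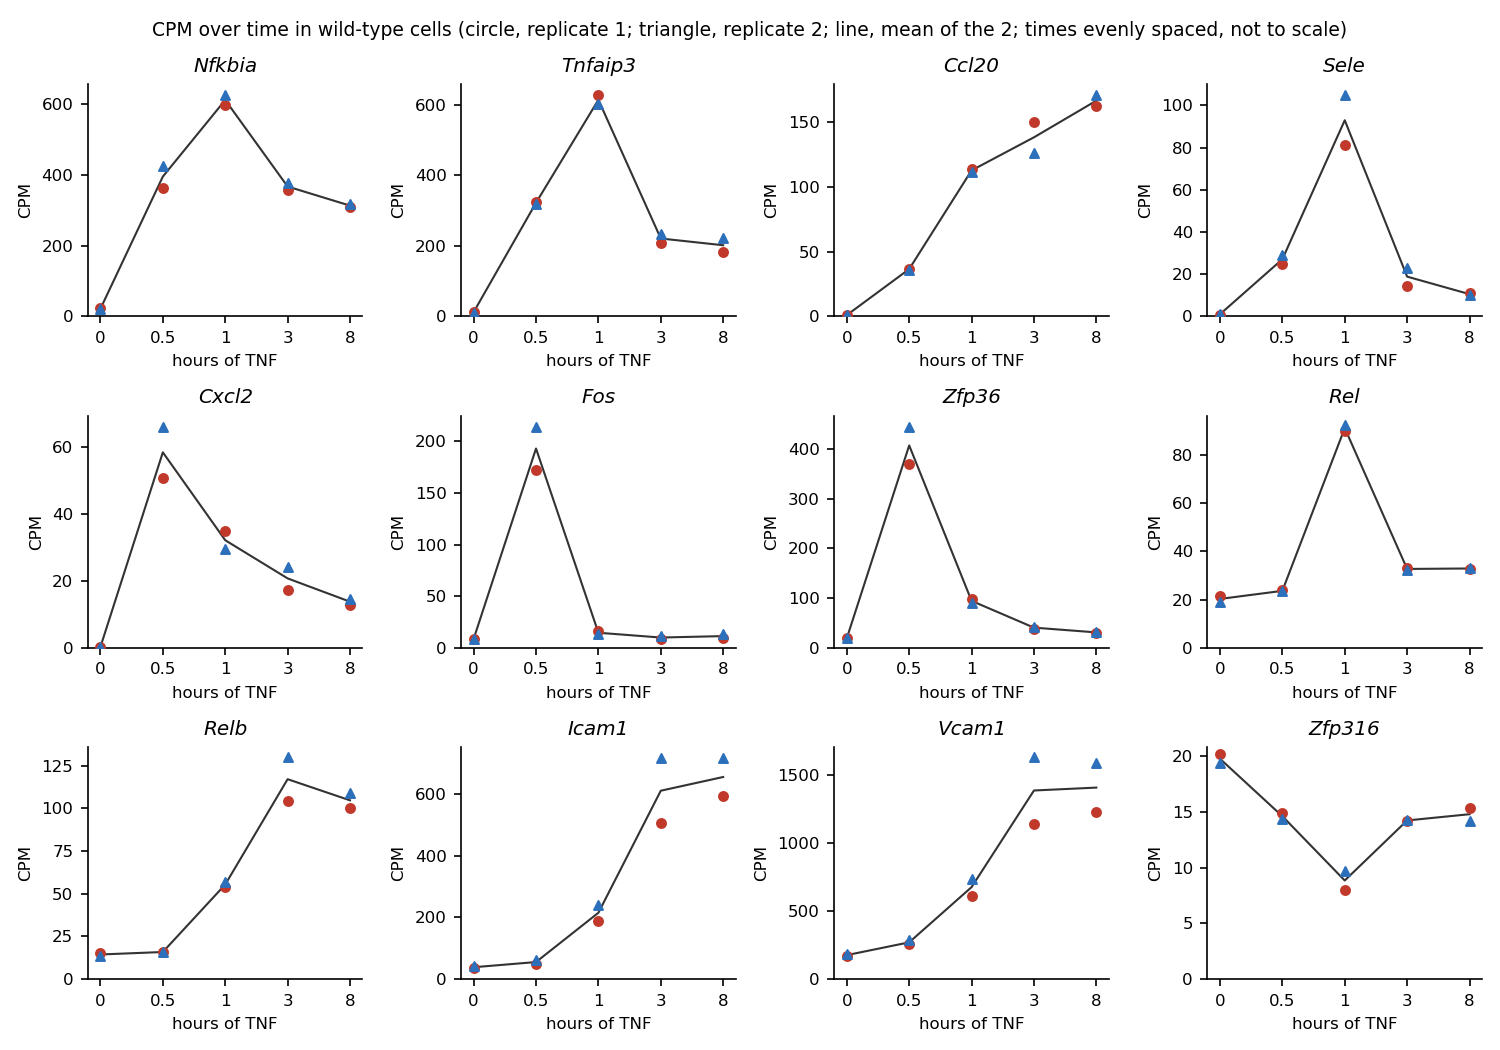
CPM of 12 genes in wild-type cells at 0, 0.5, 1, 3 and 8 h of TNF (evenly spaced, not to scale); red circles, replicate 1; blue triangles, replicate 2; lines join the means of the 2. Fos, Zfp36 and Cxcl2 are highest at 0.5 h, Nfkbia, Tnfaip3, Sele and Rel at 1 h, Relb at 3 h, and Zfp316 is lowest at 1 h.

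The second set of wild-type libraries gave the same hour of LPS, which signals through TLR4, and of Poly(I:C), a double-stranded RNA mimic, each with 1 library and 1 shared untreated library, so values are described without a test. Genes with a log2 ratio of at least 1 and at least 5 CPM numbered 227 with LPS (1.64% of 13822) and 92 with Poly(I:C) (0.666%). Of the 356 genes that rose with TNF, 143 were among the LPS genes, 40.2% of the TNF genes and 63% of the LPS genes. Among the Poly(I:C) genes were 41, 11.5% and 44.6%. The 356 were called at any size, unlike the other 2 sets. Of the 150 TNF rises of at least 1 on the log2 scale, 110 (73.3%) were among the LPS genes. Among the Poly(I:C) genes were 39 of the 150 (26%). Nfkbia stood at 30.8 CPM untreated, 935 with LPS and 227 with Poly(I:C), Tnfaip3 at 10.8 CPM untreated, 912 with LPS and 154 with Poly(I:C), and Irf1 at 33.7 CPM untreated, 743 with LPS and 131 with Poly(I:C). Ccl20 had 0.362 CPM untreated, 42.2 with LPS and 0.893 with Poly(I:C), and Vcam1 137 CPM untreated, 612 with LPS and 126 with Poly(I:C). LPS thus had high values for all 5, and Poly(I:C) had lower ones, with Ccl20 and Vcam1 near their untreated value. Of the 171 genes that fell with TNF, 4 were among the 29 lower with LPS (0.21% of 13822) and 0 among the 23 lower with Poly(I:C) (0.166%). Of the 32 TNF falls of -1 or below, 3 (9.38%) were among those lower with LPS and 0 among those lower with Poly(I:C). The rule of 5 CPM leaves out genes that are low in both libraries. The median log2 ratio with LPS was -0.26 for the 171 and -0.59 for the 32, against -0.02 for all tested genes. With Poly(I:C) it was -0.08 and -0.14, against -0.02. The Zfp genes had a median log2 ratio of -0.22 with LPS and -0.06 with Poly(I:C), where all tested genes had -0.02 and -0.02.

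The structure and starting level of the called genes are given as a description. Genes called higher spanned a median of 18.4 kb and had 7 exon blocks, those higher by at least 1 on the log2 scale 11 kb and 5, those called lower 15.1 kb and 5, and all tested genes 23.6 kb and 9. The share that spanned under 10 kb was 34.8%, 48%, 33.3% and 26% in the same order. Untreated levels had a median of 31.2 CPM for all called higher, 11.6 CPM for those higher by at least 1, and 24.7 CPM for all tested. Falls of -1 or below had 13.8 kb, 4 exon blocks and 6.17 CPM. Both sets of larger changes had a lower untreated median and a shorter median span than all tested genes. The sets were chosen by fold, which contains the untreated level, and genes of few counts need a large fold to be called. The lower untreated medians therefore cannot be read as a trait of the responding genes.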

How the data were processed

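Poly(A) RNA of wild-type and RelA-TA-KI fibroblasts was sequenced as single-end stranded libraries, per the labels' protocols. The authors deposited raw counts per gene (whole numbers, not normalized); cutadapt 1.9.1, STAR, featureCounts 1.4.6, DESeq2 and mm10 are named in the submitters' processing notes. The strand setting, annotation release and handling of multimapping reads are not given in the sources used here. The samples were grouped by title and characteristics.

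Counts of the 20 TNF libraries in 10 groups were filtered (edgeR filterByExpr, 13843 genes) and TMM-scaled, and 1 quasi-likelihood model (edgeR 4.0.16, R 4.3.3) gave each contrast, with a Benjamini-Hochberg threshold of 0.05. The spread was shared by all 10 groups (10 residual degrees of freedom). SE is the log2 fold divided by the square root of F. The scripts were tested on simulated data. Total counts limit low genes, and intervals cover counting error only.

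Same-numbered wild-type libraries deviated together: correlations over the 10 pairs of times were 0.161 to 0.529, all over 0.1. The pairing is read from the data and not from the labels, and a fit with the replicate number as a block within each genotype is given where it changes a list's count or the call of a named gene. Replicates of a group were not duplicates (chi-square per degree of freedom 8.5 and 6.34). DESeq2 1.42.0, other filters, fewer libraries and leaving out each library were the alternatives.

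The members and gene lists were chosen with earlier results of these data known. Named were the 15 largest rises and 15 falls (called, mean of at least 20 counts, no overlap), up to 4 called genes per list with well-known uncalled ones, 22 fixed genes, and called genes with 0 untreated counts. Genes named beyond these, among them Nfkbiz, Nfkbib and those in the closing section, were chosen after their values were seen.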

Additional observations from a re-analysis of the deposited data

Results flagged for a closer look

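At 1 h, 42 genes had a smaller response to TNF in RelA-TA-KI than in wild-type cells and 1 a larger one, by a test of the difference of the responses (0.303% and 0.00722% of genes). Of the genes named above, 26 were among those with the smaller response, and values are the log2 response in RelA-TA-KI minus that in wild-type cells. Inhibitors and brakes of NF-kB were Nfkbia -3.22 (SE 0.17, adjusted p = 2.4e-07), Nfkbie -3.51 (SE 0.33, adjusted p = 9.8e-05), Bcl3 -2.02 (SE 0.39, adjusted p = 0.05), with Tnfaip3 at -4.06 (SE 0.25, adjusted p = 1.2e-06). The subunit genes were Rela -0.49 (SE 0.09, adjusted p = 0.034), Rel -1.21 (SE 0.13, adjusted p = 2.1e-04), Relb -1.41 (SE 0.20, adjusted p = 0.0034) and Nfkb2 -0.79 (SE 0.10, adjusted p = 0.0016). Chemokines, cytokines and other secreted proteins were Ccl20 -4.40 (SE 0.69, adjusted p = 0.0076), Cxcl10 -3.75 (SE 0.62, adjusted p = 0.013), Ccl2 -2.17 (SE 0.22, adjusted p = 1.8e-04), Lif -1.90 (SE 0.33, adjusted p = 0.021) and Ptx3 -1.87 (SE 0.34, adjusted p = 0.026). Adhesion molecules were Vcam1 -1.55 (SE 0.22, adjusted p = 0.0039), Sele -4.65 (SE 0.91, adjusted p = 0.05), and, for the integrin ligand, Icam1 -2.31 (SE 0.30, adjusted p = 0.0022). Signalling and death genes were Birc3 -1.87 (SE 0.25, adjusted p = 0.0032), Ripk2 -1.98 (SE 0.29, adjusted p = 0.0053), Fas -0.95 (SE 0.18, adjusted p = 0.04), Gadd45b -1.70 (SE 0.16, adjusted p = 9.8e-05) and Tnfaip2 -1.85 (SE 0.20, adjusted p = 3.3e-04). Early regulators were Irf1 -3.86 (SE 0.25, adjusted p = 1.2e-06), Rnd1 -3.27 (SE 0.24, adjusted p = 6.7e-06), Gem -1.85 (SE 0.20, adjusted p = 3.3e-04), Zc3h12a -1.88 (SE 0.26, adjusted p = 0.0034) and Zfp36 -1.46 (SE 0.22, adjusted p = 0.0061). The adjusted p of Sele and Bcl3 lay just under the threshold before rounding.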

How the results depend on the processing

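Against 527 calls (356 higher, 171 lower), the 10 wild-type libraries alone gave 320 (73 lower), the 4 compared libraries alone 192 (175 and 17), and no filter beyond 1 count 875 (544 and 331). DESeq2's Wald test called 93 lower. The replicate block gave 1201 (737 and 464), within each genotype 1402 (848 and 554), with the 10 wild-type libraries 1324 (797 and 527) and with the 4 libraries 2205 (1235 and 970). Leaving out a single library gave 249 to 357 calls, 196 to 248 higher and 53 to 109 lower. Without replicate 1 in both groups there were 190 (158 and 32) and without replicate 2 174 (147 and 27), where each lone sample is assumed to vary like the other groups. Genes with an absolute log2 fold of at least 1 numbered 182, and 305 without a filter, 302 with the block on 4 libraries and 116 without replicate 2 in both groups. The cause was not tested, except that some alternatives hold fewer samples. DESeq2's size factors and a filter of 10 counts in 4 libraries kept the counts of calls within 1.5 times. For the named genes and alternatives, 1691 values kept their call, 315 missed the threshold, 10 gained it and 0 changed sign. With 2 libraries a side and genes of few counts, small changes were not detectable at this depth.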

Other observations

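The genes below are outside the lists and were chosen after their values were seen. Cd83, a surface protein of activated antigen-presenting cells, rose from 2.61 and 4.34 to 35.4 and 54.8 CPM (log2 fold 3.65, SE 0.60, adjusted p = 0.0021), and Pim1, a survival kinase, from 19.6 and 19.7 to 121 and 129.9 (log2 fold 2.68, SE 0.16, adjusted p = 5.9e-08). Arid5a, which stabilizes Il6 mRNA, rose from 6.96 and 8.67 to 39.1 and 36.8 (log2 fold 2.26, SE 0.16, adjusted p = 4.5e-07), and Noct, a circadian phosphatase, from 35.5 and 20.8 to 161 and 138 (log2 fold 2.44, SE 0.31, adjusted p = 2.0e-04). Mir155hg, the host transcript of miR-155, rose from 0.290 and 0.706 to 2.29 and 2.23 CPM (log2 fold 2.06, SE 0.53, adjusted p = 0.045). Ch25h, which makes 25-hydroxycholesterol, rose from 10.9 and 10.5 to 34.9 and 31.5 (log2 fold 1.64, SE 0.22, adjusted p = 2.6e-04), and Sdc4, a heparan sulfate proteoglycan, from 167 and 140.3 to 408 and 358 (log2 fold 1.32, SE 0.09, adjusted p = 3.5e-07). F3, tissue factor, which starts coagulation, rose from 125 and 117 to 239 and 222 (log2 fold 0.93, SE 0.10, adjusted p = 4.1e-05). Both treated libraries were above both untreated ones in each. The 2 groups did not overlap for any of the 527 called genes, so this is no further support. A fit short of 1 library ended the call of Mir155hg whichever of the 4 was removed (adjusted p up to 0.22).

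Among falls outside the numbered Zfp genes, Tnfaip8l3, a lipid transfer protein, went from 3.05 and 4.13 to 1.15 and 0.991 CPM (log2 fold -1.75, SE 0.43, adjusted p = 0.036), and Enpp2, autotaxin, which makes lysophosphatidic acid, from 45.4 and 42.8 to 23.9 and 23.8 (log2 fold -0.88, SE 0.19, adjusted p = 0.014). Zscan20 and Zscan22, also zinc-finger genes, fell by log2 values of -1.08, adjusted p = 0.012 and -0.94, adjusted p = 0.0073. Leaving out a single library ended the calls of Tnfaip8l3 and Enpp2 whichever of the 4 was removed (adjusted p up to 0.3). The call of Zscan20 was lost without untreated replicate 2 or TNF replicate 2 (adjusted p up to 0.26). The call of Zscan22 was lost without untreated replicate 2 or TNF replicate 1 (adjusted p up to 0.11).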
